A study of Mus musculus with 2 samples.

Results

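Interferon-stimulated and antigen-processing genes were measured in mouse cochlea 3 hours after noise. The group comprised 40 genes chosen by name, and all 40 were among the 37074 gene names on the array. Of these, 30 were assigned as driven mainly by type I interferon and 10 as driven mainly by type II interferon, although many respond to both. The noise sample was cochlear tissue of 7-week-old female C57BL/6 mice, given 2 hours of intense noise, and the tissue was taken 3 hours after it ended. The baseline sample was cochlear tissue of 7-week-old female C57BL/6 mice that had received no noise. The strain is an inbred laboratory strain, and neither sample is labelled with an allele, an agent other than noise or the number of mice behind it. Each sample was hybridised to 1 single-colour Agilent array, so there were no biological replicates, no test across animals was possible, and size rules are given in place of p-values.

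Interferons are secreted alarm proteins that cells make after sensing viral or misplaced nucleic acid. Type I interferons, alpha and beta, act through the receptor chains IFNAR1 and IFNAR2 and the kinases JAK1 and TYK2 on a complex that includes STAT2 and IRF9 and binds the interferon-stimulated response element (ISRE). Type II interferon, gamma, comes mostly from T and NK cells and acts through IFNGR1, IFNGR2, JAK1 and JAK2, with the gamma-activated site (GAS) as the DNA element at its end. In the inner ear, resident macrophages and incoming leukocytes are known to respond to acoustic injury, and both cell kinds carry these receptors.

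As a group the interferon genes were modestly higher after noise. Of the 40 genes, 37 had a log2 ratio (noise minus baseline) above 0, against 47.5% of all 26533 genes measured on both arrays, and their median log2 ratio was 0.27, against -0.01 for all genes. The scaling moved these shares: with the spike-in probes 40 of 40 and 79.2% of all genes were above 0 (all-gene median 0.22), and with the normexp background correction 36 of 40 and 35.1% were. The middle of the distribution ran from 0.13 to 0.43 (lower and upper quartile) in the interferon genes and from -0.19 to 0.15 over all genes. Only Bst2 was at least 2-fold higher, where 0.611% of all genes were, and none was at least 2-fold lower, where 1.25% were. At a 1.5-fold size rule 3 of the 40 were higher (Bst2, Ifit3 and Ifi44), against 3.02% of all genes, and none was lower, against 4.99%.

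The technical error set the scale for single genes. Repeat spots of a probe gave a log2 ratio with a median SD of 0.053 (300 probes), whereas different probes of a gene differed with an SD of 0.27 (9350 genes with at least 2 measured probes). The scanner software's own error estimate gave an SD of at least 0.20 for the log2 ratio of each member probe. By the spread between probes, 20 of the 40 genes were higher by more than 1 SD, against 13.2% of all genes, and none was lower by more than 1 SD, against 17.4%. The other 20 genes lay within 1 SD of 0.

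**Figure D1:**
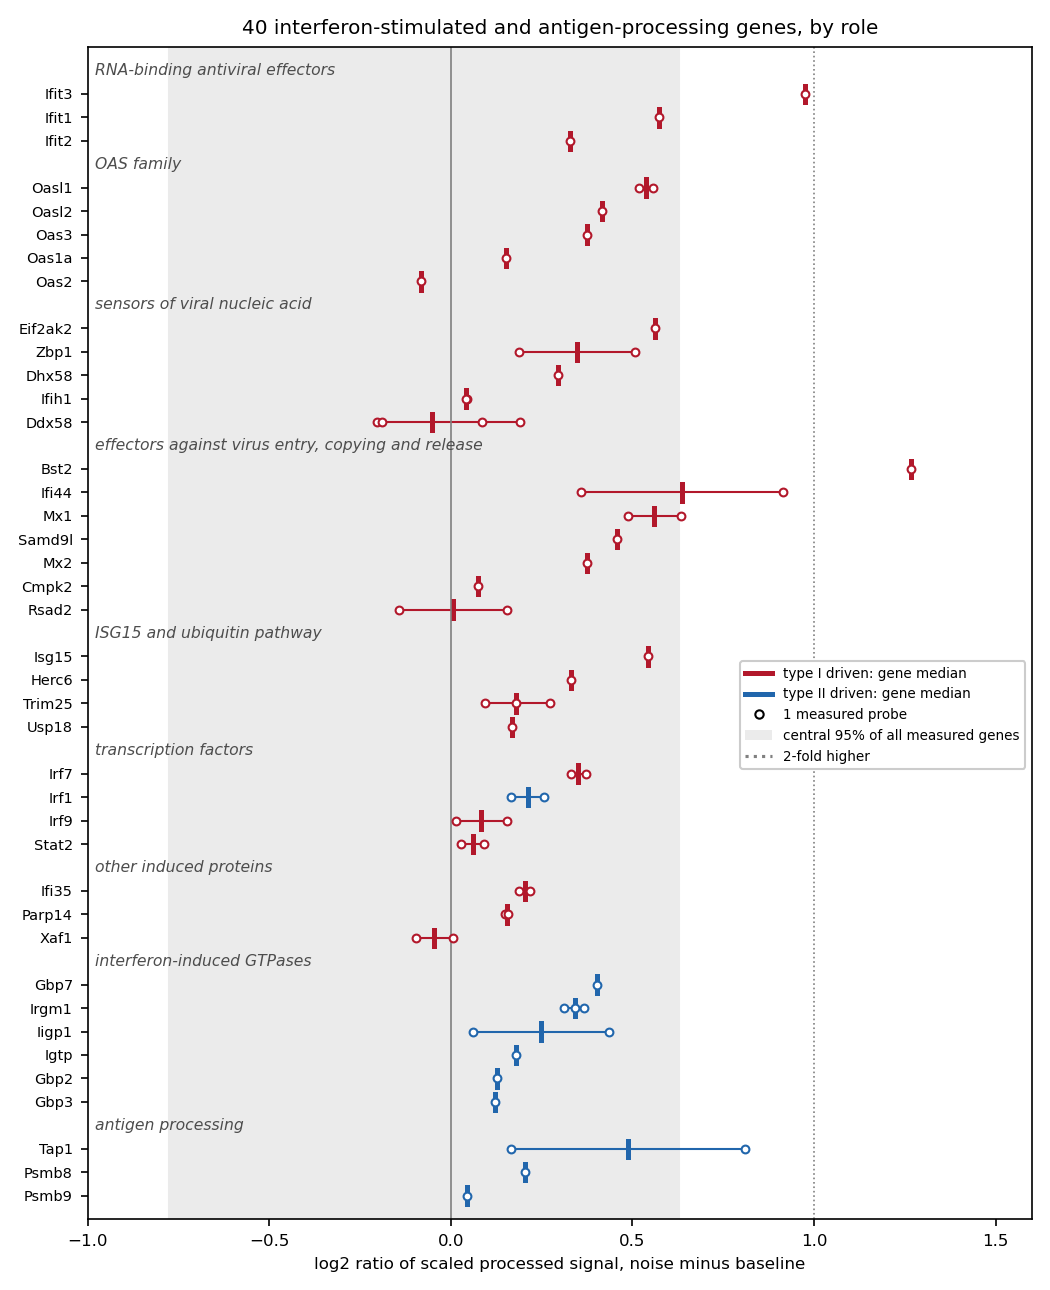
Log2 ratio (noise minus baseline) of the 40 genes, grouped by role. Open circles are measured probes, thick bars the gene medians (red, type I driven; blue, type II driven), and grey spans the central 95% of all measured genes, from -0.78 to 0.63; Bst2, Ifit3 and Ifi44 lie above it and no gene lies below it.

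The letters of the binding elements were looked up in the promoter windows of the RefSeq table (build GRCm38.p6), which run from 250 bases before to 50 bases after an annotated start. These windows are shown because they carry the elements through which interferon is known to act on such genes. The table held windows for 32 of the 40 genes. The ISRE letters searched on both strands were GAAA, any 2 bases, then GAAA, which read as TTTC, any 2 bases, TTTC where the element lies on the other strand. They were present in 16 of the 32 genes (50%), against 3.99% of the 27025 genes in the table. The GAS letters searched were TTCNNNGAA, which read the same on both strands, and these were present in 9 of the 32 genes (28.1%), against 9.55% of all genes in the table. A match describes the letters only.

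The windows of 4 type I driven genes are shown, chosen among the 8 highest because they carry more than 1 ISRE match. Of the others among the 8, Ifi44 and Oasl1 had no match in their windows, and Mx1 had no window in the table. Eif2ak2 had 1 ISRE match, beginning at 18 after the start, and a GAS match far from it, beginning at -178. Capitals mark the ISRE letters, read 5′ to 3′ on the gene's strand. Overlapping matches run together in Bst2 and Isg15.
Bst2, chr8:71537423-71537722, minus strand: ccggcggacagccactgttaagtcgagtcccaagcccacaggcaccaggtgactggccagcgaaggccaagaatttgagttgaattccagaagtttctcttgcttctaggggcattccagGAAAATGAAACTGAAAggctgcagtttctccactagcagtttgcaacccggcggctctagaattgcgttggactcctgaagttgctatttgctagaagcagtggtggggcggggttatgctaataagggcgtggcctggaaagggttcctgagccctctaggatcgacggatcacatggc
Ifit3, chr19:34583279-34583578, plus strand: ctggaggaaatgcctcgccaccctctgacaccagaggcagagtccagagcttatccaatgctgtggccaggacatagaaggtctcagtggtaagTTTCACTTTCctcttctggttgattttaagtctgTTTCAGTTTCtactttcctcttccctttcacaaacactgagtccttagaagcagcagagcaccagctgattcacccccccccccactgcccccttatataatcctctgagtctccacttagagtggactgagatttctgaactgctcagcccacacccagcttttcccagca
Ifit1, chr19:34640639-34640938, plus strand: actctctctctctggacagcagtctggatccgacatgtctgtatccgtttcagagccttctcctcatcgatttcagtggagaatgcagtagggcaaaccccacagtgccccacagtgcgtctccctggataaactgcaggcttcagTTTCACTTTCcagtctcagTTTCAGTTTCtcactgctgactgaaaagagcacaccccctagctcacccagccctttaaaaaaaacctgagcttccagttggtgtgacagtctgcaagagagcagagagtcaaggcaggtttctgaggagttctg
Isg15, chr4:156200769-156201068, minus strand: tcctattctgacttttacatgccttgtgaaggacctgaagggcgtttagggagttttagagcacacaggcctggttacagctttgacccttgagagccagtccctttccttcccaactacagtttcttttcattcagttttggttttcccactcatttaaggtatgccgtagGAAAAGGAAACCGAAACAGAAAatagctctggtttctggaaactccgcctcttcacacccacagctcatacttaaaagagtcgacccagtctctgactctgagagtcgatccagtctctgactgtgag
Bst2 carried 2 overlapping matches from -130 to -115 relative to the annotated start, and a GAS match from -136 to -128 overlapped them. Ifit3 carried matches beginning at -156 and -122, Ifit1 at -104 and -85, and Isg15 carried 3 overlapping matches from -78 to -57.

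The type II driven windows of Igtp and Irf1 show the GAS letters, with the ISRE letters also in capitals in Igtp.
Igtp, chr11:58199306-58199605, plus strand: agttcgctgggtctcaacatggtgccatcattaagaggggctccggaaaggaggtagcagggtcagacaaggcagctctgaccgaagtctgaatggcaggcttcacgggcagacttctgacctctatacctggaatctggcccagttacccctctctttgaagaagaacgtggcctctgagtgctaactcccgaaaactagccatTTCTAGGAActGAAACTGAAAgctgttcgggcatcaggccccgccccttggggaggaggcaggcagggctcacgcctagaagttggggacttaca
Irf1, chr11:53769764-53770063, plus strand: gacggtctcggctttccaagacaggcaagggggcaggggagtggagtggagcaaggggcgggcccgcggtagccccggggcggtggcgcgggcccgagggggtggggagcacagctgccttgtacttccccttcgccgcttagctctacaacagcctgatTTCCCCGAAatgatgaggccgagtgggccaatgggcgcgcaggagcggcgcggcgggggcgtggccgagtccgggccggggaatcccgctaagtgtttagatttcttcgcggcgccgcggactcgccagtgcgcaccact
In Igtp the GAS letters began at -45 and the ISRE letters at -34, and in Irf1 the GAS letters began at -90 and no ISRE letters were found.

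Shorter stretches, read on the strand that shows the GAAA letters, let the ISRE of further members be compared.
Oas1a, chr5:120907523-120907552, minus strand: ttctcggGAAATGGAAACTGAAAatctact
Oas3, chr5:120777718-120777741, minus strand: gggaggaGAAAACGAAAgtgaagg
Rsad2, chr12:26456556-26456579, plus strand: gttttctGAAAATGAAAgttggac
Gbp2, chr3:142620597-142620620, minus strand: agacagtGAAAGTGAAActaaaag
Gbp3, chr3:142559992-142560021, minus strand: gatctggGAAATAGAAACTGAAActgtgtc
Gbp7, chr3:142530276-142530299, minus strand: gagaactGAAACTGAAActgcaca
Irgm1, chr11:48871428-48871457, minus strand: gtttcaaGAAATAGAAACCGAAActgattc
The ISRE letters were found in 11 of 23 type I driven genes (47.8%) and in 5 of 9 type II driven genes (55.6%). The GAS letters were found in 5 of 23 (21.7%) and 4 of 9 (44.4%). Genes with the ISRE letters had a median log2 ratio of 0.26 and those without them 0.27, with ranges from -0.05 to 1.27 and from -0.05 to 0.64. Rsad2, with an ISRE match beginning at -120, was at 0.00, and Ifi44, with none, was at 0.64.

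**Figure D2:**
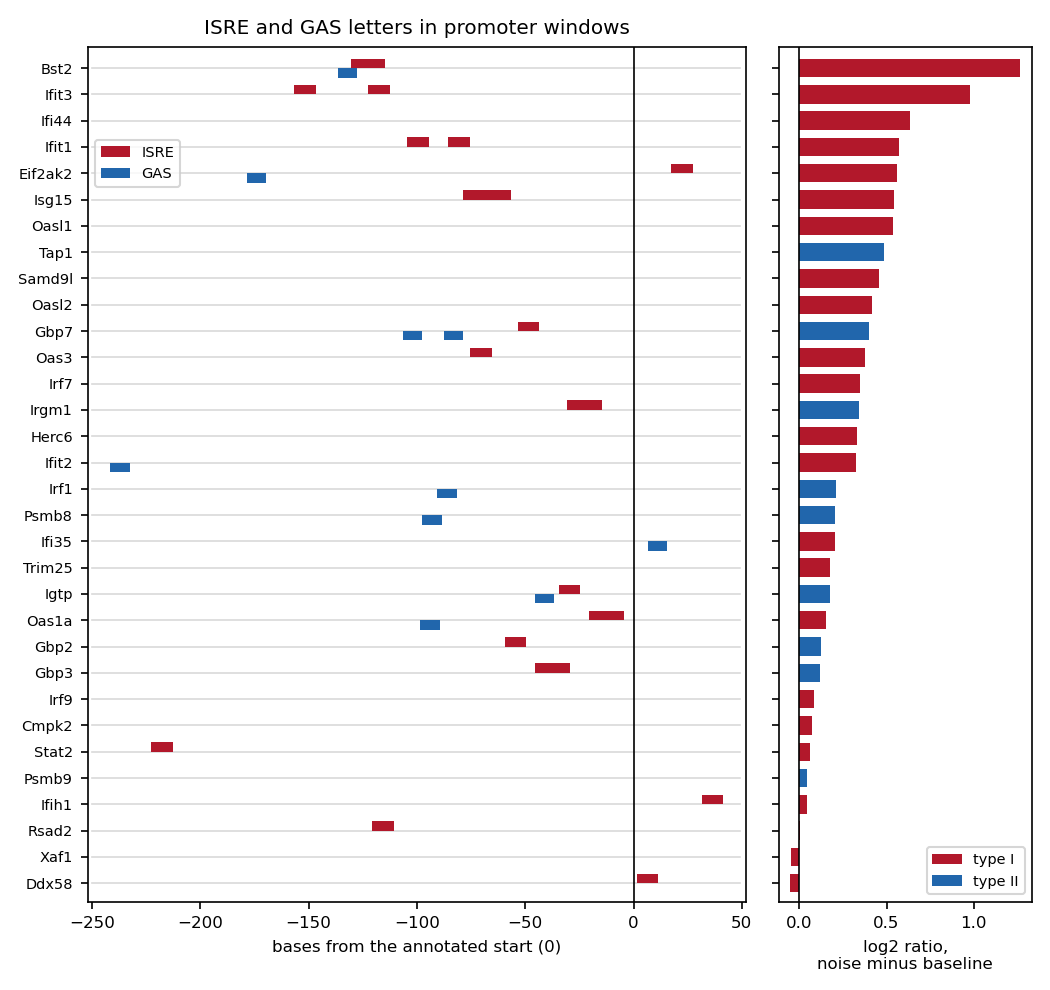
Positions of the ISRE (red) and GAS (blue) letters in the promoter windows of 32 genes, in bases from the annotated start at 0, with the log2 ratio (noise minus baseline) at right, bars starting at 0. Genes run down the page by log2 ratio, and ISRE letters are found from the highest gene, Bst2, to the lowest shown, Ddx58.

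Bst2 encodes tetherin, a membrane protein that holds budding virus on the cell surface, and was the highest of the 40 genes. Its processed signal was 721 after noise and 264 at baseline. The probe lies on chromosome 8 from 74058603 to 74058662 (mm9, the build of the array design; the annotation of that build was not used here). After scaling, Bst2 was 2.41-fold higher (log2 ratio 1.27), which is rank 68 of all genes from the top. The value rests on 1 probe.

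Among the other proteins that block entry, copying or release of virus, all 6 were above 0, against 47.5% of all genes. Ifi44, an antiviral protein, had signals of 81.0 and 19.1 after noise, against 55.6 and 8.94 at baseline, from 2 probes with log2 ratios of 0.36 and 0.91. The brighter probe gave the smaller difference, so that the median of 0.64 depended on the dimmer one. Mx1 had signals of 156 and 31.3 after noise, against 88.6 and 19.7 at baseline (0.56), from 2 probes that start at the same base (0.63 and 0.49). Mx1 and Mx2 encode dynamin-like GTPases that trap incoming virus, and the RefSeq table lists both as transcribed pseudogenes in this strain. Mx2 had a signal of 179.7 after noise and 122 at baseline (0.38).

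Samd9l, a restriction factor of poxviruses, had a signal of 1410 after noise and 904 at baseline (0.46). The neighbouring genes Cmpk2, a nucleotide kinase, and Rsad2, which encodes viperin, a maker of a chain-terminating nucleotide, stood near 0. Cmpk2 had a signal of 446 after noise and 373 at baseline (0.07). Rsad2 had signals of 1066 and 230 after noise, against 1037 and 182 at baseline, and its probes had opposite signs (-0.14 and 0.15).

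The IFIT proteins bind foreign RNA and block its translation, and all 3 measured genes were above 0, against 47.5% of all genes. Ifit3 had a signal of 1135 after noise and 508 at baseline and was 1.97-fold higher (0.98, 1 probe on chromosome 19 from 34663105 to 34663164, mm9). Ifit1 had a signal of 299.8 after noise and 177 at baseline (0.57), and Ifit2 had 120.4 after noise and 84.5 at baseline (0.33). Ifit3 and its near copy Ifit3b may share hybridisation. The separate Ifit3b probe, looked at after the other values were known, was also higher (0.77).

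Members of the OAS family, which make or relate to the enzymes that make 2-5-oligoadenylate and so switch on RNase L, spread from -0.08 to 0.54. Oasl1, a repressor of Irf7 translation, had signals of 112 and 414 after noise, against 68.9 and 248 at baseline, and both probes gave nearly the same log2 ratio (0.52 and 0.56). Oasl2 had a signal of 1265 after noise and 834 at baseline (0.42), and Oas3 had 104 after noise and 70.4 at baseline (0.37). Oas1a was at 0.15, with signals of 1393 after noise and 1105.2 at baseline from a probe that also lists Oas1g. Oas2 was the lowest of the 40 genes, with a signal of 651 after noise and 607 at baseline (-0.08).

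The sensors of viral nucleic acid did not move as 1 block. Eif2ak2, which encodes the kinase PKR that halts translation on double-stranded RNA, was highest, with a signal of 286 after noise and 171 at baseline (0.56). Zbp1, a sensor of left-handed nucleic acid that can start necroptosis, had signals of 120.3 and 15.2 after noise, against 93.0 and 9.42 at baseline (0.35). Dhx58, the regulator LGP2, had a signal of 159 after noise and 114 at baseline (0.29).

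The RNA sensors MDA5 and RIG-I had gene values close to 0. Ifih1, which encodes MDA5, had signals of 295 and 42.6 after noise, against 252 and 36.5 at baseline (0.04, both probes). Ddx58, which encodes RIG-I, was measured by 4 probes with log2 ratios from -0.20 to 0.19. Its probes gave signals of 311, 55.6, 37.0 and 661 after noise, against 315, 55.9, 30.7 and 511 at baseline, and the median was -0.05.

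ISG15, a ubiquitin-like protein attached to others during an antiviral response, and the enzymes around it were all above 0, against 47.5% of all genes. Isg15 had a signal of 1432 after noise and 866 at baseline (0.54). Herc6, the mouse ligase that attaches ISG15, had 38.6 after noise and 27.0 at baseline (0.33). Trim25, a ligase that activates RIG-I, was at 0.18 with 3 probes between 0.09 and 0.27. Usp18, which removes ISG15 and dampens the type I receptor, had 283 after noise and 222 at baseline (0.17).

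Transcription factors of the response were little higher. Irf7, the amplifier of alpha interferon production, had signals of 2985 and 96.2 after noise, against 2091 and 65.5 at baseline, and its probes agreed closely (0.33 and 0.37). Irf1, the factor that relays gamma interferon, had signals of 1921 and 37.7 after noise, against 1507 and 27.8 at baseline (0.21). Irf9 (0.08) and Stat2 (0.06), the partners in the type I complex, lay within 1 SD of 0. Among other induced proteins, Ifi35 was at 0.20 and the ADP-ribosyltransferase gene Parp14 at 0.15, each with 2 close probes. Xaf1, which encodes a pro-apoptotic protein, had signals of 462 and 15.8 after noise, against 435 and 13.9 at baseline (-0.10 and 0.01).

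The interferon-induced GTPases, which attack vacuoles that hold microbes, were all above 0, against 47.5% of all genes, and none was past 1.5-fold. Gbp7 had a signal of 122 after noise and 81.6 at baseline (0.40). Irgm1 was measured by 3 probes between 0.31 and 0.37, which gave signals of 521, 924 and 207 after noise, against 370, 642 and 141 at baseline. Iigp1 had signals of 507 and 22.98 after noise, against 329.9 and 19.4 at baseline (0.44 and 0.06). Igtp was at 0.18, Gbp2 at 0.13 and Gbp3 at 0.12.

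All 3 antigen-processing genes were above 0, against 47.5% of all genes, and none was past 1.5-fold. Tap1, a subunit of the peptide pump into the endoplasmic reticulum, had probes that differed in size: 70.8 after noise against 35.5 at baseline (0.81), and 620.2 after noise against 487 at baseline (0.16). Psmb8, an inducible subunit of the immunoproteasome, had a signal of 790 after noise and 604 at baseline (0.21). Psmb9, another such subunit, had 883 after noise and 754 at baseline (0.04).

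**Figure D3:**
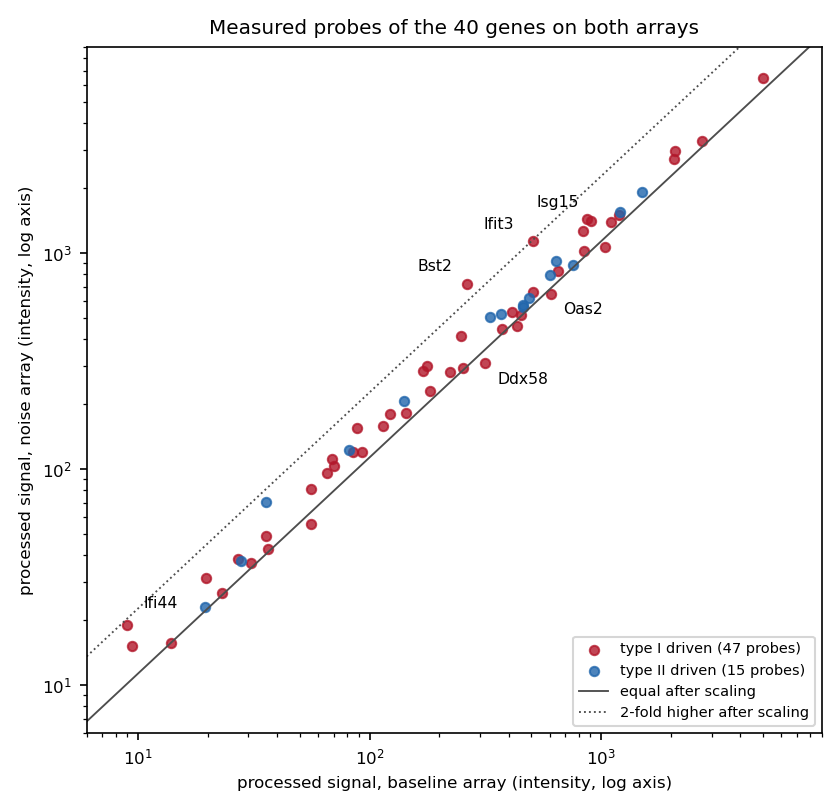
Processed signal of the 62 measured probes of the 40 genes on the noise array (vertical) and the baseline array (horizontal), both on log axes; red, type I driven, and blue, type II driven. The solid line marks equal levels after scaling and the dotted line 2-fold higher; the Bst2 probe lies above the dotted line, and most others lie just above the solid line.

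Of the 68 probes for the 40 genes, 62 were well above background on both arrays and 3 on neither. Another 3 were well above background on 1 array only, all of them additional probes for genes measured by others. For these the brighter over the dimmer array was at least 2.16-fold (Irgm1, brighter after noise), at least 1.75-fold (Psmb9, brighter after noise) and at least 1.97-fold (Xaf1, brighter at baseline). With no signal above 10.7, these probes were near the lower limit of measurement. Of 18 genes with at least 2 measured probes, 15 had all probes in the same direction, and Ddx58, Rsad2 and Xaf1 did not. The same share over all genes is not given, so this count is a description only.

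Type I and type II driven genes were compared next. Type I driven genes had a median log2 ratio of 0.33 and a range from -0.08 to 1.27. Of these 30 genes, 27 were above 0, against 47.5% of all genes. Type II driven genes had a median of 0.21, with 10 of 10 above 0, against the same 47.5%, and a range from 0.04 to 0.49. The difference of the medians, 0.12, was smaller than the SD between probes of a gene, and with the normexp background correction it was -0.0081. All 8 of the highest genes and the 3 genes below 0 were type I driven, as were 30 of the 40 genes in all. With 1 array a group the difference could not be tested.

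**Figure D4:**
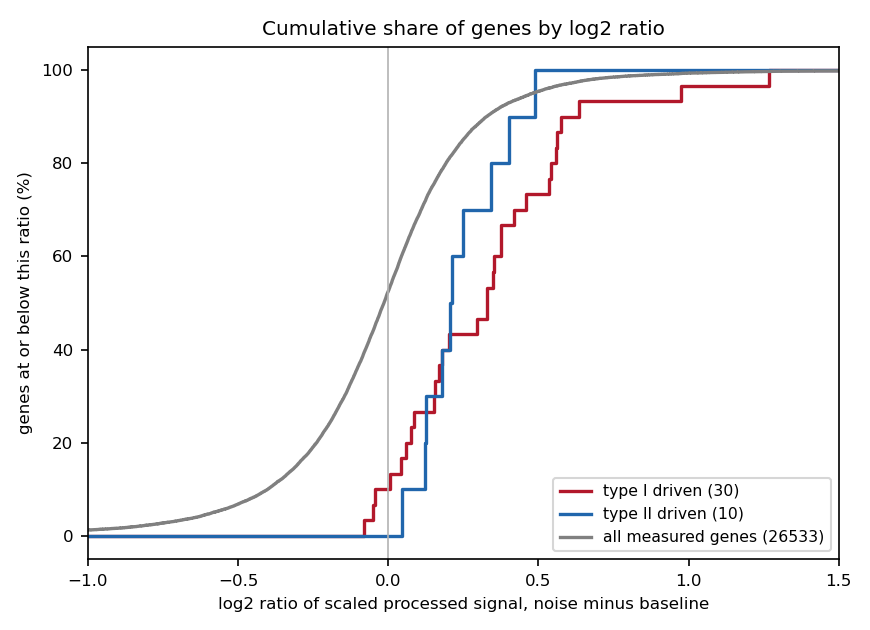
Cumulative share of genes by log2 ratio (noise minus baseline) for the 30 type I driven genes, the 10 type II driven genes and all 26533 measured genes. The medians are 0.33, 0.21 and -0.01 in that order, and of the interferon curves only the type I curve reaches beyond 0.49.

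The ligands themselves were dim on both arrays. Of 12 interferon genes listed, 10 were names on the array and 6 were measured, with signals of 71.8 or less. Ifnb1, the first type I interferon made after sensing, and Ifna4, Ifna12 and Ifne were not well above background on either array. Ifng, the type II ligand, had a signal of 6.91 after noise and 7.57 at baseline (-0.31). Ifna1 was at -0.32, Ifna5 at -0.30 and Ifna2 at 0.24, the lambda gene Ifnl3 at -0.18 and Ifnk at 0.19. With the normexp background Ifna2 was at -0.08, and with spike-in scaling Ifnl3 was at 0.05, so the direction of these 2 dim probes depended on the setting.

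Receptors and kinases were near 0. Of 10 genes, 8 were above 0 (80%, against 47.5% of all genes) and none was past 1.5-fold, with a median of 0.08. The type I receptor chains Ifnar1 and Ifnar2 were at -0.02 and 0.03, and the type II chains Ifngr1 and Ifngr2 at 0.23 and 0.03. Ifnlr1 and Il10rb, the chains of the lambda receptor, were at 0.28 and 0.07, and the kinase gene Tyk2 was highest at 0.45.

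Genes that act before interferon is made were mixed. Of 16 sensors and adaptors 11 were above 0 (68.75%, against 47.5% of all genes), with a median of 0.14. With the normexp background, where the median of all genes was -0.06, their median was -0.0024. Tbk1, the kinase that activates IRF3, was the only one past 1.5-fold, with a signal of 312 after noise and 168 at baseline (0.71). Irf5 was at 0.58 and Ifi204, a DNA sensor of the PYHIN family, at 0.42. Feedback inhibitors were all above 0 (12 of 12, against 47.5% of all genes), with a median of 0.15. With the normexp background the median of the inhibitors was 0.05, against the same -0.06 over all genes. Socs3, which is induced more by cytokines of the IL-6 family, was at 1.12. Tnfaip3, the NF-kappaB inhibitor A20, was at 0.41 and the phosphatase gene Ptpn6 at 0.38, from 4 probes that ran from -0.11 to 0.89. Usp18 belongs to this list too.

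Further induced genes outside the 40 were also counted. Of 23 measured genes listed as type I induced, 20 were above 0 (87.0%, against 47.5% of all genes). Their median was 0.20 and none was past 1.5-fold. With the normexp background, where the median of all genes was -0.06, their median was 0.05. Apobec3 was highest at 0.52 from 5 probes that ran from -0.94 to 1.02, and at 0.09 with normexp. Next came Ifi30 at 0.45 and Slfn2 at 0.39. A place on this list does not exclude induction by type II interferon, for Ifi30 as for others. Of 19 measured type II induced genes, 12 were above 0 (63.2%, against the same 47.5%), with a median of 0.11 that was -0.01 with the normexp background. Cxcl10, a chemokine also induced by NF-kappaB, was the highest by far, with a signal of 679 after noise and 172 at baseline (1.803).

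Another guanylate-binding protein gene, Gbp9, was lowest of that list, with a signal of 432 after noise and 640.2 at baseline (-0.75). Ido1 was at 0.54, and at -0.01 with the normexp background. Cxcl9, a chemokine that depends on gamma interferon, had a signal of 39.2 after noise and 41.2 at baseline (-0.25), and was singled out after its value was seen.

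The antigen-presentation pathway beyond the 40 genes had small median differences. Of 18 MHC class I and peptide-loading genes, 14 were above 0 (77.8%, against 47.5% of all genes), with a median of 0.08 against -0.01. Tap2, the partner of Tap1 in the peptide pump, had a signal of 1991 after noise and 1156 at baseline and alone was past 1.5-fold (0.60). The chaperone gene Pdia3 was at 0.56 and H2-M3 at 0.46. H2-K1 (0.14), 1 of the class I heavy chain genes, and B2m (0.16), the light chain gene, were named after their values were seen. Of the other heavy chain genes, H2-Q4 was at -0.15, H2-D1 at -0.04, H2-L at 0.04, H2-T23 at 0.07 and H2-Q7 at 0.15.

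The constitutive subunits of the proteasome gave a reference for the inducible ones. Of 14 constitutive genes 8 were above 0 (57.1%, against 47.5% of all genes), with a median of 0.08. Psmb2 was highest at 0.48, followed by Psma1 at 0.30 and Psmb1 at 0.24. The subunits that Psmb8 and Psmb9 replace, chosen for this pairing after the values were seen, were Psmb5 at -0.12 and Psmb6 at -0.14. With spike-in scaling Psmb5 and Psmb6 were at 0.11 and 0.09, and Psmb8 and Psmb9 at 0.436 and 0.275. MHC class II genes had a median of 0.01, with 6 of 9 above 0, against the same 47.5%. Their furthest members were H2-DMb1 at -0.33, H2-Ob at 0.31 and H2-DMa at 0.29.

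**Figure D5:**
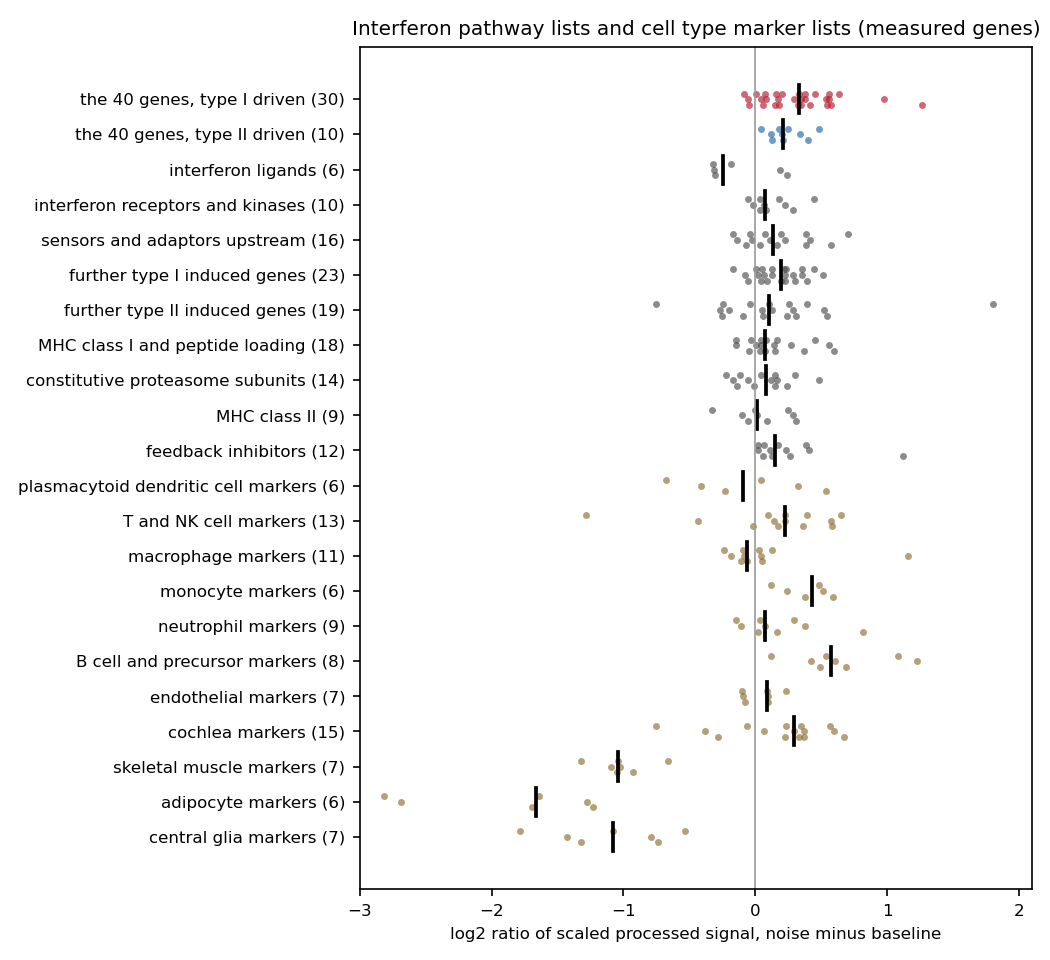
Log2 ratio (noise minus baseline) of measured genes in the type I and type II driven groups, in 9 related pathway lists (grey) and in 11 cell type marker lists (brown); dots are genes, black bars medians. In the main setting the medians of the interferon groups are 0.33 and 0.21, and those of B cell and monocyte markers 0.57 and 0.43. Those of muscle, adipocyte and central glia markers are all below -1 in that setting.

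Markers of other cells that express interferon genes were also measured, and the share of all genes above 0 was 47.5%. Monocyte markers were above 0 in 6 of 6 genes (median 0.43), and their summed scaled level was 192 after noise and 143 at baseline, where 1 unit is the array's 75th percentile. Chil3 was the brightest of the 6, with a signal of 34620 after noise and 21380 at baseline (0.51), and so weighed most in this sum. B cell and precursor markers were above 0 in 8 of 8 genes (median 0.57), with a summed level of 30.97 after noise and 20.5 at baseline. T and NK cell markers were above 0 in 10 of 13 genes (median 0.22), with a summed level of 7.96 after noise and 6.58 at baseline. Their median was -0.0047 with the normexp background, against -0.06 over all genes. Eomes, at -1.28, and Cd4, at -0.43, were lower after noise. In bulk tissue a change in the number of cells of a type and a change in RNA per cell cannot be told apart.

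Further marker lists had medians closer to 0, with single genes that stood apart. Their counts above 0 stand beside 47.5% of all genes. Plasmacytoid dendritic cells carry much Bst2 and make alpha interferon, and 3 of 6 of their markers were above 0, with a summed level of 19.7 after noise and 22.3 at baseline. Pacsin1 was the brightest of these 6, with a signal of 3921 after noise and 4056 at baseline, and so weighed most in the sum. The 6 markers ran from -0.68 (Cox6a2) to 0.54 (Klk1), with Siglech at -0.41, or -0.19 with the normexp background. Whether other cells in the tissue gave part of these signals was not tested. Macrophage markers were above 0 in 5 of 11 genes (median -0.06, summed level 26.2 after noise and 27.2 at baseline). With spike-in scaling their median was 0.17, against 0.22 over all genes. Endothelial markers were above 0 in 4 of 7 (median 0.09, summed level 22.6 after noise and 22.7 at baseline). Neutrophil markers were above 0 in 7 of 9 (median 0.08, summed level 836 after noise and 859 at baseline). The macrophage marker Cd163 was at 1.16 from probes at 0.71 and 1.61, and the neutrophil marker Cxcr2 was at 0.82. No marker on these lists was at background on both arrays. The part of monocytes, B cells and T and NK cells in the interferon genes' values was not tested.

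Markers of several tissues also differed between the 2 samples, and whether the samples held different amounts of these tissues was not tested. All 15 cochlear markers were measured on both arrays and 11 were above 0 (73.3%, against 47.5% of all genes), with a median of 0.29. Markers of adipocytes (median -1.67, summed level 16.4 after noise and 69.2 at baseline), skeletal muscle (-1.04, 4.84 after noise and 9.97 at baseline) and central glia (-1.08, 12.35 after noise and 26.95 at baseline) were lower after noise in all 20 genes. With the normexp background these medians were -1.395 for adipocytes, -0.85 for skeletal muscle and -0.605 for central glia. With spike-in scaling they were -1.435, -0.81 and -0.85 in that order. The part of these tissues in the interferon genes' values was not tested. The arrays lay on the same slide, and they were of like brightness: the 75th percentile of signal was 316 after noise and 278 at baseline. The share of probes well above background was 75.3% after noise and 75.2% at baseline.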

How the data were processed

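Cochlear total RNA was labelled with Cy3 from 0.1 micrograms per sample, per the labels' protocols, and hybridised to 1 array a group. Each deposited scanner file lists the intensity of every spot. Feature Extraction 11.5.1.1 from Agilent had detrended these values within each array, in space and by multiplication, per the file headers. Values were not scaled between arrays, and no spot was saturated. A table deposited by the authors gives log2 values, with no stated scale, centring or direction; these were found by setting it against the scanner values. Each column was log2 of that array's processed signal minus 8.30 (noise) or 8.12 (baseline), with column medians of -2.80 and -2.78, no centring per gene and the same direction.

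Flagged spots were left out, spots of a probe were averaged as log2, and both arrays were brought to a common 75th percentile, taken over the 56604 probes that were no controls. Only probes well above background on both arrays (41659) were used, and the median of their log2 ratios stood for the gene. Array names were kept; accessions of 59 of the 68 member probes, covering all 40 genes, matched the RefSeq table of GRCm38.p6 under the same symbol.

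The 40 genes, their split by interferon type and the related lists were chosen with earlier results of these data known. Signals were given first for the 8 highest and 5 lowest genes, those past 1.5-fold and those whose probes disagree in sign; of each related list up to 3 genes by absolute log2 ratio, and all ligands and receptors, are named. The gene step was tested on simulated data. Alternatives were normexp background (offset 50, limma 3.58.1), other scalings, other filters on dim probes, other rules for probes of a gene, and the value table. Python 3.11.15 and R 4.3.3 were used. The number of arrays limits the precision.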

Additional observations from a re-analysis of the deposited data

How the results depend on the processing

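Over 10 other ways of processing the arrays, 36 to 40 of the 40 genes were above 0 and none was 2-fold lower. With the normexp background the median log2 ratio was 0.165 (type I driven 0.16), against -0.06 over all genes, and the difference of type I minus type II medians was -0.0081. With spike-in scaling the median was 0.502 (type I driven 0.559, type II driven 0.439), against 0.22 over all genes. Spike-in scaling, median scaling and the value table shift every gene by the same amount. They could not change the 0.29 by which the interferon genes stood above all genes in the main setting. That distance was 0.227 with normexp, 0.225 with the brightest probe and 0.29 with quantile or loess values. It was 0.254 with a stricter filter on dim probes and 0.371 with dim probes kept. With the brightest probe of each gene the median was 0.212. Median scaling and spike-in scaling each put 2 genes past 2-fold, Bst2 and Ifit3, and without Bst2, a choice made once the data were known, 0 genes were. Leaving out genes induced by both kinds of interferon, the difference of medians was 0.179. A list median was taken as moved where it shifted by more than the repeat-spot SD of 0.053. The normexp background adds an offset of 50, which shrinks the ratios of dim probes: Ifi44 was at 0.09, Mx1 at 0.20, Zbp1 at 0.03 and Tap1 at 0.21. When dim probes were kept, Oas2 was at 0.27, Dhx58 at 0.89 and Psmb9 at 0.65. Bst2 stayed between 1.17 and 1.5 and Ifit3 between 0.93 and 1.21 in these alternatives. Signs changed for Ifih1 with normexp, and for Rsad2 with quantile, loess or brightest-probe values. They also changed for Ddx58 with the brightest probe or spike-ins, for Xaf1 with spike-ins, and for Oas2 with spike-ins or with dim probes kept. Over all genes, the share at least 2-fold higher or lower was 0.211% and 0.279% with normexp, 1.38% and 0.678% with spike-ins, and 1.81% and 3.5% with dim probes kept. No paired analysis was possible because there was a single array of each kind; leaving one out would leave no comparison.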

Other observations

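The genes beside the highest interferon genes were looked at after the values were seen. Around Bst2, the nearest measured protein-coding genes in the RefSeq order were lower or near 0 on one side, Ccdc194 at -0.02 and Plvap, an endothelial gene, at -0.27. On the other side Mvb12a was at -0.25, Tmem221 at 0.35 and Nxnl1 at -0.19. Around Ifit3, the family members Ifit2 (0.33), Ifit1bl1 (0.53), Ifit3b (0.77) and Ifit1bl2 (0.15) were all above 0, and Lipa, an acid lipase gene, was at -0.12. Ch25h, the oxysterol enzyme gene that stands beyond Lipa, was at 1.05.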
